A study of Mus musculus with 18 samples.

Results

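Nrg1, Hbegf, Areg, Ereg, Vegfa, Pdgfa, Pdgfb, Igf1 and Inhba, which encode secreted or shed growth factors, and Igfbp4, which encodes an IGF-binding protein, were followed across 6 groups of bone marrow-derived macrophages (BMDMs). The genes were taken by symbol, and all 10 were among the 22852 genes of the count tables. Of the 10 genes, 8 passed the filter on low counts and were tested among 11305 genes, while Areg and Ereg did not pass and are described by their counts.

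BMDMs are macrophages grown from bone marrow, here of C57BL/6 mice and with medium conditioned by L929 cells, and each group held 3 biological replicates (18 samples). Unstimulated BMDMs received neither agent. LPS-stimulated (10 ng/ml) BMDMs received LPS, the endotoxin of gram-negative bacteria, once for 3 h without priming. LPS-primed BMDMs received 100 ng/ml LPS for 24 h, and LPS-tolerant BMDMs received the same priming followed by 10 ng/ml LPS for 3 h. Per the study, the medium was exchanged for a fresh one at this second dose. No group received fresh medium without LPS after priming. The second exposure below therefore stands for LPS, fresh medium and 3 h of further culture, which cannot be told apart. Whether unstimulated and LPS-stimulated BMDMs were cultured as long as the primed BMDMs is not given in the sources used here. Comparisons between cells with and without priming may thus include a difference in culture time, which was not tested. The remaining groups, LPS-primed + carboplatin and LPS-tolerant + carboplatin, received 25 µM carboplatin, a platinum drug that crosslinks DNA, 1 h before priming. The labels name no gene deletion or transgene in any group. The cells were cultured in bulk, so that fewer cells of a type and less RNA per cell cannot be told apart. Growth factor protein, including what the serum and the conditioned medium supply, was not measured.

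The read pairs assigned to genes numbered 6869667 to 14708099 per sample (median 8986463), and Spearman's rho between samples of a group was 0.961 to 0.987 across genes. Macrophage markers (10 genes) summed to 14856 to 31507 CPM, that is, counts scaled to a fixed library total. T cell and mast cell markers were at 0 in all samples, and neither Ly6g nor Mpo of the neutrophil list (5 genes) was counted. The summed neutrophil list was 0.935 to 1.55 CPM in unstimulated, 3.94 to 11.7 CPM in LPS-stimulated and 8.81 to 57.8 CPM in the 4 groups that received 24 h of LPS. Fibroblast markers (6 genes) summed to at most 0.467, 2.48 and 8.04 CPM in these sets of samples. The highest neutrophil sum was that of S100a8 alone (57.8 CPM), while S100a9 and Elane were at most 0.978 and 0.245 CPM in any sample. Of the fibroblast list Dcn reached 7.23 CPM, and each other gene at most 0.663 CPM. The platelet list (4 genes) reached 1960 CPM through Pf4, with Gp9 at 0 and Itga2b at most 0.713 CPM. Its sums were 13.3 to 39.1 CPM in unstimulated, 47.7 to 62.8 CPM in LPS-stimulated and 735 to 1960 CPM in the LPS-primed and LPS-tolerant groups with or without carboplatin. The part of these lists, whose sums moved with priming, in the results below was not tested.

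Growth factors of these families act on receptor tyrosine kinases or, for the activins, on serine/threonine kinase receptors, and macrophages are a known source of them during wound repair. The EGF family (Nrg1, Hbegf, Areg, Ereg) is made as membrane-anchored precursors that the protease ADAM17, guided by iRhom proteins, releases from the cell surface. Exposure to LPS induces many genes within hours through NF-κB and MAPK signaling, and in endotoxin tolerance a second exposure no longer induces part of them.

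All positions below refer to the GRCm39 build, the build named in the submitters' processing notes, with GENCODE annotation. The EGF-family genes Ereg (chr5:91222157-91241505, plus strand) and Areg (chr5:91287451-91296291, plus strand) lie near each other. The 300 bases before the annotated start of both genes are shown for these neighboring ligands of one family, whose reads were too few for a test. Capitals mark matches to the motifs searched on both strands.
Areg promoter, chr5:91287151-91287450, plus strand: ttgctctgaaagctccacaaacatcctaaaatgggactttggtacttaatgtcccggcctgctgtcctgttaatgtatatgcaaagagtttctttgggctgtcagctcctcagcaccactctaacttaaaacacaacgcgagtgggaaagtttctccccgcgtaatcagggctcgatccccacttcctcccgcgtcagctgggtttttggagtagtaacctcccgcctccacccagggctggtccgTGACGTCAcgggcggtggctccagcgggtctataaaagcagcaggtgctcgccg
Ereg promoter, chr5:91221857-91222156, plus strand: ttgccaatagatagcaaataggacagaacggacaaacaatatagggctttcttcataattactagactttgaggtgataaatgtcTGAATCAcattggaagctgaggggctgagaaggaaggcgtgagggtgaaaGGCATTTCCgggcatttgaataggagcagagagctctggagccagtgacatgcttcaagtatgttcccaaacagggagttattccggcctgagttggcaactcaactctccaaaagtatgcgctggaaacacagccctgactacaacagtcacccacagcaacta
The Areg sequence held 1 cAMP response element (CRE, TGACGTCA), 54 bases before the start, a motif found in 1.75% of 21751 promoters of the same length. The Ereg sequence held 1 AP-1 motif (TGANTCA) 215 bases before the start and 1 kappa-B-like motif (GGNNTTTCC) 165 bases before it, found in 7.37% and 5.72% of promoters. Neither held the C/EBP (TTGCNNAA) or hypoxia element core (ACGTG) motifs, which 11.4% and 19.7% of promoters held. The windows of Nrg1, Vegfa, Pdgfa, Igf1, Igfbp4 and Inhba held no match to the 5 motifs, which says only that these letters are not in these windows. The last 40 bases of the windows of Pdgfa, Igf1 and Inhba were not found in the RefSeq promoter of the gene, so that they may lie at another start, and Nrg1 and Ereg had no RefSeq entry to compare. No match to 1 motif overlapped a match to another.

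The growth factor genes changed with LPS in most comparisons. Between cells with and without carboplatin none changed in the fit without a replicate block. With replicate number added as a block, which compares same-numbered samples, 3 calls were made. They were Igfbp4 in the primed state (log2FC -0.56, adjusted p = 0.0435) and Vegfa and Igf1 in the tolerant state (log2FC -0.74 and -0.53, adjusted p = 0.0753 and 0.160). Under the block 7.87% of all genes passed in the primed and 6.93% in the tolerant state. None of the 3 had an absolute log2FC above 2. A gene was called changed at an adjusted p under 0.05 for LPS and under 0.25 for carboplatin, the limits of the study. In LPS-stimulated relative to unstimulated BMDMs, 6 of the 8 tested genes changed, 5 upward (Nrg1, Hbegf, Pdgfa, Pdgfb, Inhba) and Igfbp4 downward, while 51.2% of all genes tested changed, 24.3% upward and 26.9% downward. In LPS-primed relative to unstimulated BMDMs, 7 of the 8 changed, 3 upward (Nrg1, Vegfa, Inhba) and 4 downward (Pdgfa, Pdgfb, Igf1, Igfbp4), against 25.2% of all genes (12.1% upward and 13.1% downward). In LPS-tolerant relative to LPS-stimulated BMDMs all 8 changed, 3 upward (Nrg1, Vegfa, Inhba) and 5 downward, against 34.5% of all genes (16.2% upward and 18.3% downward). In LPS-tolerant relative to LPS-primed BMDMs 2 of the 8, Pdgfb and Igf1, rose, against 6.31% of all genes changed and 3.6% higher. With the study's further limit of 2 on the absolute log2FC, 5, 4, 5 and 1 of the 8 genes remained in these comparisons, against 12%, 7.47%, 8.04% and 0.681% of all genes. Nrg1, Hbegf and Inhba in the first and Nrg1 and Inhba in the second started from unstimulated samples at or near 0 reads. Their passing of the fold limit was thus largely set by their entry. The others there, Pdgfa and Pdgfb in the first and Pdgfb and Igfbp4 in the second, had reads in every sample.

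Hbegf, Nrg1 and Inhba had 0 to 2 reads in unstimulated BMDMs and passed the filter on low counts through the LPS-treated samples, so that their entry depended on their rise. With at least 10 counts asked of every sample compared, 3 of 5 genes changed in LPS-stimulated and 5 of 5 in LPS-primed relative to unstimulated BMDMs. Under the main filter 51.2% and 25.2% of all genes changed there, and the shares under this stricter filter are not given here. For the 5 genes with at least 10 counts in each of the 18 samples (Vegfa, Pdgfa, Pdgfb, Igf1, Igfbp4), the median log2FC was 0.77 in LPS-stimulated relative to unstimulated BMDMs (-0.09 over all genes tested). It was -1.53 in LPS-primed relative to unstimulated BMDMs (-0.02 over all genes) and -2.04 in LPS-tolerant relative to LPS-stimulated BMDMs (0.00258 over all genes). These comparisons share groups and are therefore not independent of each other.

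**Figure D1:**
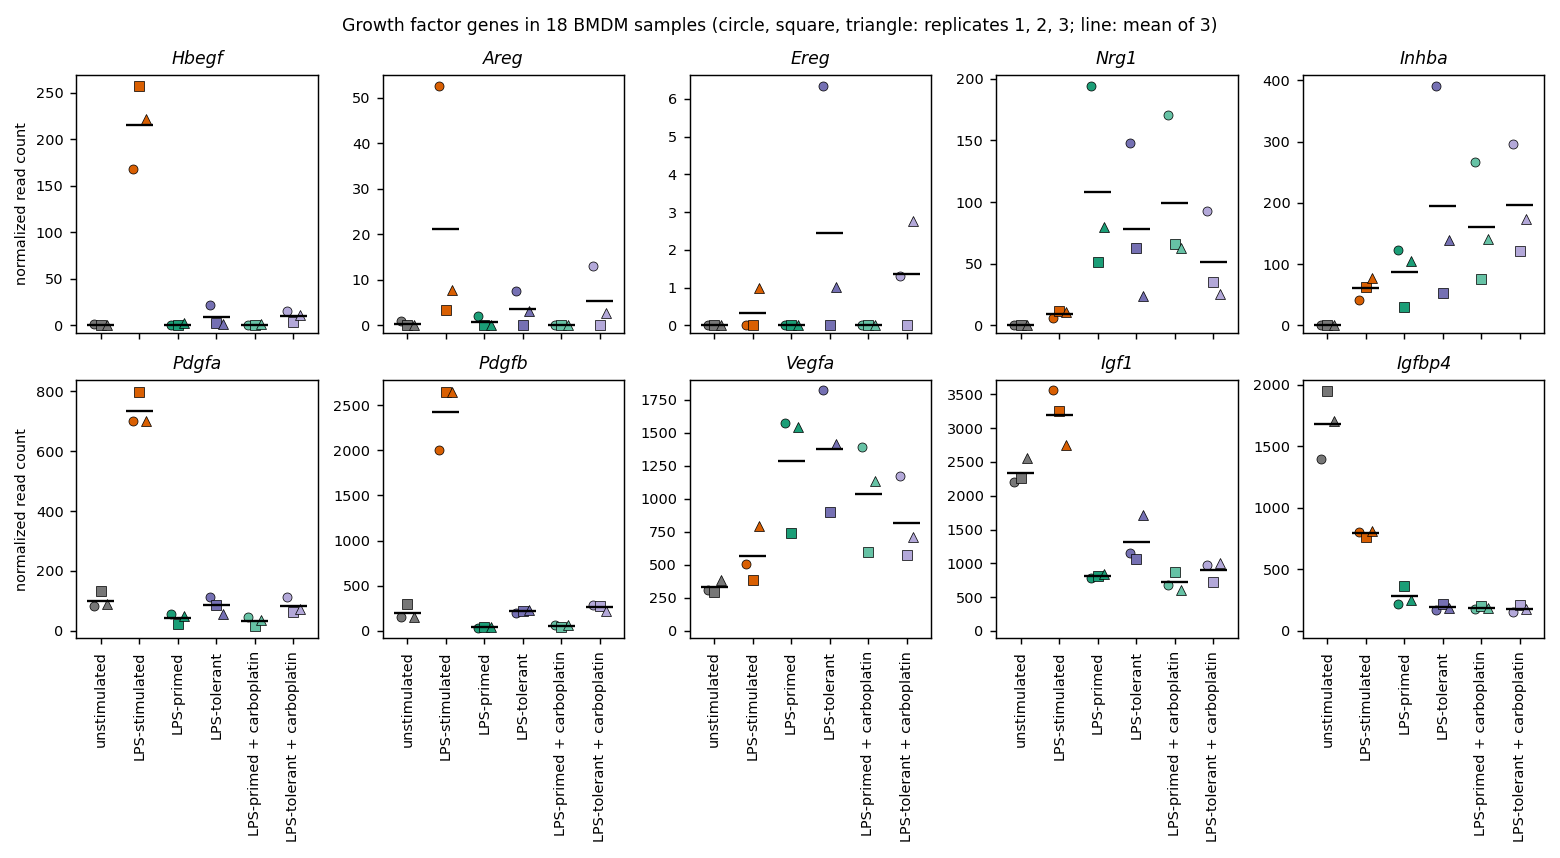
Normalized read counts (y axes, linear, scaled per gene) of the 10 growth factor genes in the 18 samples by group (x axis), with circles, squares and triangles for replicates 1, 2 and 3 and lines for group means. Hbegf, Pdgfa and Pdgfb were highest in the 3 LPS-stimulated samples, Igfbp4 was highest in the 3 unstimulated samples, and Nrg1 lay between 23.7 and 194 in the LPS-primed and LPS-tolerant groups with or without carboplatin and at 0 in unstimulated samples.

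Hbegf encodes heparin-binding EGF-like growth factor, a ligand of EGFR and ErbB4. Values below are normalized counts, that is, read counts scaled to a common library size, given for replicates 1, 2 and 3 in this order. Hbegf was at 168, 257 and 222 in LPS-stimulated BMDMs and at 1.91, 0 and 0 in unstimulated BMDMs, where 2 reads were counted in all. The ratio was 376 (95% counting interval 104 to 3112, counting error only), with an adjusted p of 3.15e-06. After priming Hbegf was nearly undetected, at 0, 0 and 2.81 in LPS-primed BMDMs.

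In LPS-tolerant BMDMs Hbegf was at 21.5, 2.59 and 2.06, so that only replicate 1 stood clearly above the LPS-primed samples. The level was 24.7-fold below that of LPS-stimulated BMDMs (log2FC -4.72 ± 0.74 SE, adjusted p = 9.64e-05), without overlap between the groups. The ratio to LPS-primed BMDMs was 7.26 (counting interval 2.18 to 37.9, 22 against 3 reads), and the comparison did not pass the limit (adjusted p = 0.169). With carboplatin Hbegf was at 15.7, 3.41 and 11.0 in the tolerant and at 0, 0 and 2.01 in the primed state, a ratio of 13.8 (3.48 to 120, 27 against 2 reads) with an adjusted p of 0.152. All 3 samples of the tolerant state then lay above all 3 of the primed state, although the reads were few.

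Areg, which encodes the EGFR ligand amphiregulin, was at 52.5, 3.46 and 7.89 in LPS-stimulated BMDMs, and 44 of the 57 reads came from replicate 1. Unstimulated BMDMs had 1 read, which gave a ratio of 58.2 (counting interval 10.0 to 2338), and the interval leaves out the spread between replicates. LPS-tolerant BMDMs had 9 reads and LPS-tolerant + carboplatin BMDMs 13, none of them in replicate 2 of either group. Ereg, which encodes the EGFR and ErbB4 ligand epiregulin, had 1 read over the 3 LPS-stimulated samples, 6 in LPS-tolerant and 4 in LPS-tolerant + carboplatin BMDMs and none elsewhere. No difference in Ereg was detectable at this depth.

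Nrg1 (chr8:32303906-33374825, minus strand) encodes neuregulin 1, a ligand of ErbB3 and ErbB4. It was not counted in any unstimulated sample and was at 5.97, 11.8 and 10.8 in LPS-stimulated BMDMs, at least 3.55-fold higher against a floor of 3 reads per library (adjusted p = 0.00970). In LPS-primed BMDMs it was at 194, 51.3 and 79.7, at least 40.3-fold above unstimulated BMDMs (adjusted p = 9.53e-05). All LPS-primed samples lay above all LPS-stimulated samples, and these above the unstimulated samples. GENCODE lists 2 genes of this name, the second inside the first, whereas the count tables hold 1 row.

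The second exposure did not raise Nrg1 further. LPS-tolerant BMDMs were at 148, 63.0 and 23.7, 8.22-fold above LPS-stimulated BMDMs (log2FC 2.97 ± 0.76 SE, adjusted p = 0.00670), and overlapped the LPS-primed samples (log2FC -0.48 ± 0.64 SE, adjusted p = 0.737). With carboplatin Nrg1 was at 170, 65.8 and 62.4 in the primed and at 93.1, 35.3 and 25.7 in the tolerant state. Replicate 1 was the highest of its group in all 4 of these groups. Of its receptor genes, Erbb3 was counted at group means of 19.8 to 45.9, whereas Erbb4 had 1 read in all samples together. Erbb2, which encodes the kinase partner of ErbB3, was not counted in any LPS-treated group.

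Pdgfb encodes the B chain of platelet-derived growth factor, which signals through PDGFRα and PDGFRβ. It showed the widest range among the genes that had reads in every sample, with 54.1-fold between its highest and its lowest group mean. Pdgfb was at 149, 294 and 155 in unstimulated BMDMs and at 1999, 2646 and 2640.2 in LPS-stimulated BMDMs, 12.2-fold higher (log2FC 3.60 ± 0.25 SE, adjusted p = 5.29e-09). In LPS-primed BMDMs it was at 38.1, 47.9 and 48.8, 4.44-fold below unstimulated BMDMs (log2FC -2.15 ± 0.26 SE, adjusted p = 7.72e-06). Pdgfb was thus above the unstimulated level at 3 h of 10 ng/ml LPS and below it at 24 h of 100 ng/ml LPS, and dose and time differed together between these groups.

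Pdgfb was higher after the second exposure in every replicate. LPS-tolerant BMDMs were at 203, 223 and 236, 4.91-fold above LPS-primed BMDMs (log2FC 2.29 ± 0.26 SE, adjusted p = 7.52e-05) and 11.0-fold below LPS-stimulated BMDMs (log2FC -3.46 ± 0.25 SE, adjusted p = 2.04e-08). The same step in carboplatin-treated cells took Pdgfb from 67.5, 44.2 and 62.4 to 288, 275 and 220.0, 4.50-fold (log2FC 2.18 ± 0.25 SE, adjusted p = 0.000236). Pdgfb was the only one of the 8 tested genes that changed between the carboplatin-treated primed and tolerant states, where 1.98% of all genes changed (1.29% upward). The tolerant groups fell within the range of the unstimulated samples, and the primed groups lay below it.

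Pdgfa (chr5:138961758-138983435, minus strand), which encodes the A chain, followed a similar course at lower levels. It rose from 82.2, 133 and 89.1 in unstimulated to 702, 798 and 700.0 in LPS-stimulated BMDMs, 7.23-fold (log2FC 2.85 ± 0.34 SE, adjusted p = 3.47e-06). LPS-primed BMDMs were at 58.2, 23.9 and 48.8, 2.32-fold below unstimulated BMDMs (log2FC -1.21 ± 0.36 SE, adjusted p = 0.0180), without overlap. This call was lost without unstimulated replicate 2 (log2FC -0.95, adjusted p = 0.103) and without LPS-primed replicate 2 (log2FC -0.92, adjusted p = 0.0844).

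Pdgfa was at 113, 87.2 and 56.6 in LPS-tolerant BMDMs, 8.57-fold below LPS-stimulated BMDMs (log2FC -3.10 ± 0.35 SE, adjusted p = 3.81e-06). It was 1.96-fold above LPS-primed BMDMs, which did not pass the limit (log2FC 0.96 ± 0.36 SE, adjusted p = 0.130), and the lowest tolerant sample overlapped the highest primed one. With carboplatin it was at 47.3, 17.9 and 38.2 in the primed and 113, 64.9 and 71.7 in the tolerant state, 2.41-fold (log2FC 1.28 ± 0.37 SE, adjusted p = 0.0899). These carboplatin-treated groups did not overlap, and the difference passed the limit (log2FC 1.28, adjusted p = 0.0249) under the replicate block. In that fit 9.2% of all genes passed. The summed platelet list was higher in the LPS-primed than in the unstimulated samples, where Pdgfa and Pdgfb were higher, and its part in these results was not tested.

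**Figure D2:**
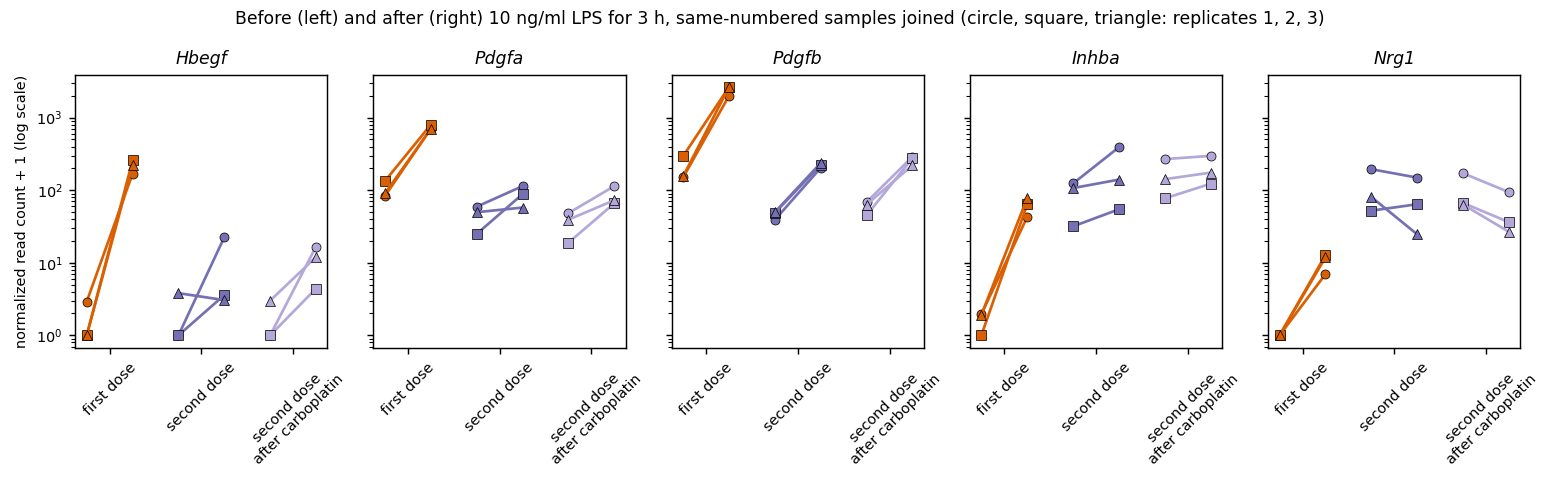
Normalized read count + 1 (log axis) of 5 genes before and after 3 h of 10 ng/ml LPS, with same-numbered samples joined: unstimulated to LPS-stimulated (first dose), LPS-primed to LPS-tolerant (second dose) and the same with carboplatin. Pdgfb rose in all 9 pairs, from a mean of 199 to 2428 at the first dose and from 44.9 to 220.4 at the second, whereas Nrg1 rose from 0 at the first dose and was lower after the second in 5 of 6 pairs.

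Whether the second exposure acted differently from the first was tested as the difference between the response of LPS-primed and that of unstimulated BMDMs to 10 ng/ml LPS. The part of the fresh medium given with the second exposure was not tested. It was smaller for 4 of the 8 genes (Nrg1, Pdgfa, Pdgfb, Inhba), and no gene of the 8 had a called positive difference, while 23.8% of all genes differed, 13.3% with a negative and 10.5% with a positive difference. A positive difference can also be a weaker fall, whereas the 4 genes named had risen at the first exposure. With the limit of 2 on the absolute log2FC 2 of the 8 genes remained, against 8.01% of all genes. These were Nrg1 and Inhba, which started from unstimulated samples at or near 0 reads. For Pdgfb the second response was lower by 1.31 ± 0.34 (SE) on the log2 scale (difference -1.31, adjusted p = 0.00945) and for Pdgfa by 1.89 ± 0.49 (difference -1.89, adjusted p = 0.00894). For Nrg1 and Inhba the adjusted p was 0.0213 and 0.0113, and no size is given because unstimulated BMDMs had 0 and 2 reads. Both passed the filter on low counts through LPS-treated samples, and their first response started at the floor. A smaller second response on the log2 scale was therefore partly built in for them. For Hbegf, also with 2 reads in unstimulated BMDMs, the difference did not pass the limit (adjusted p = 0.0918), but did so without LPS-tolerant replicate 1, the highest of its group (adjusted p = 0.0166), and with DESeq2 (adjusted p = 0.00650).

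The differences between both responses for Vegfa (-0.68 ± 0.52 SE, adjusted p = 0.391), Igf1 (0.24 ± 0.26 SE, adjusted p = 0.559) and Igfbp4 (0.54 ± 0.26 SE, adjusted p = 0.151, or 0.0299 without LPS-primed replicate 2) did not pass the limit. Without replicate 3 of every group, none of the 8 genes passed it. The adjusted p was then 0.186 for Pdgfb, 0.220 for Pdgfa, 0.120 for Nrg1 and 0.192 for Inhba. The call for Nrg1 was also lost without unstimulated replicate 2 (adjusted p = 0.0508), and limma-voom called neither Nrg1 (adjusted p = 0.0568) nor Inhba (adjusted p = 0.0936).

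Vegfa (chr17:46327919-46343309, minus strand) encodes vascular endothelial growth factor A, the main inducer of blood vessel growth and a target of the hypoxia-inducible factor HIF-1. It was at 314, 293 and 386 in unstimulated and at 1577, 744 and 1548 in LPS-primed BMDMs, 3.90-fold higher (log2FC 1.96 ± 0.38 SE, adjusted p = 0.000947), without overlap. LPS-stimulated BMDMs were at 509, 389.5 and 798, all above the highest unstimulated sample, but the 1.71-fold difference did not pass the limit (log2FC 0.77 ± 0.37 SE, adjusted p = 0.0934). Under the replicate block it did (log2FC 0.73, adjusted p = 0.00553), as did 63.2% of all genes.

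LPS-tolerant BMDMs held Vegfa at 1825, 899 and 1418, 2.44-fold above LPS-stimulated BMDMs (log2FC 1.29 ± 0.37 SE, adjusted p = 0.0124) and level with LPS-primed BMDMs within their spread (log2FC 0.096 ± 0.36 SE, adjusted p = 0.925). The call against LPS-stimulated BMDMs was lost without LPS-tolerant replicate 1 (log2FC 1.04, adjusted p = 0.0617) and without LPS-stimulated replicate 2 (log2FC 1.08, adjusted p = 0.0636). Replicate 1 was highest and replicate 2 lowest in each of the 4 groups that received 24 h of LPS. Inhba showed the same order of replicates in these 4 groups, and Igfbp4 was lowest in replicate 1 and highest in replicate 2 in all 4.

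Igf1 (chr10:87693642-87772904, plus strand) encodes insulin-like growth factor 1, a survival and growth signal made by many macrophages. It was at 2205, 2263 and 2559 in unstimulated and at 777, 817 and 847 in LPS-primed BMDMs, 2.88-fold lower (log2FC -1.53 ± 0.19 SE, adjusted p = 1.29e-05). LPS-stimulated BMDMs were at 3563, 3250.3 and 2756, above all unstimulated samples, and this 1.36-fold difference was near the limit (log2FC 0.45 ± 0.19 SE, adjusted p = 0.0542, or 0.0299 under the replicate block). It passed the limit without LPS-stimulated replicate 3 (adjusted p = 0.0421), without unstimulated replicate 3 (adjusted p = 0.0496) and with DESeq2 (adjusted p = 0.0317). LPS-tolerant BMDMs were at 1157, 1064 and 1711, between the LPS-primed and the unstimulated samples without overlap.

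The Igf1 level in LPS-tolerant BMDMs was 1.61-fold above LPS-primed BMDMs (log2FC 0.69 ± 0.19 SE, adjusted p = 0.0371) and 2.43-fold below LPS-stimulated BMDMs (log2FC -1.28 ± 0.19 SE, adjusted p = 5.55e-05). The first of these calls was lost without any 1 of the 3 LPS-primed samples (adjusted p = 0.0951 to 0.104) and without LPS-tolerant replicate 3 (log2FC 0.45, adjusted p = 0.204). Igf1os, an antisense gene, overlaps Igf1, and genes on the opposite strand also overlap Nrg1, Hbegf, Ereg, Vegfa, Pdgfa, Pdgfb and Inhba. Whether the counting used the strand is not given in the sources used here.

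Igfbp4 (chr11:98932064-98945218, plus strand) encodes a secreted protein that binds IGF and limits its access to the receptor. It was the only 1 of the 8 tested genes that was lower than in unstimulated BMDMs both in LPS-stimulated and in LPS-primed BMDMs. From 1395, 1947 and 1708 in unstimulated BMDMs it was at 807, 759.7 and 811 in LPS-stimulated BMDMs, 2.12-fold lower (log2FC -1.09 ± 0.18 SE, adjusted p = 0.000101). In LPS-primed BMDMs it was at 221, 366 and 253, 6.01-fold lower than in unstimulated BMDMs (log2FC -2.59 ± 0.19 SE, adjusted p = 3.55e-08). No 2 of these 3 groups overlapped.

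LPS-tolerant BMDMs were at 171, 218 and 186 for Igfbp4, 4.14-fold below LPS-stimulated BMDMs (log2FC -2.04 ± 0.19 SE, adjusted p = 4.52e-07). They were 1.46-fold below LPS-primed BMDMs in the same direction in 3 of 3 same-numbered pairs (log2FC -0.54 ± 0.19 SE, adjusted p = 0.0982), and this passed the limit under the replicate block (log2FC -0.53, adjusted p = 0.0114), as did 18% of all genes. The summed fibroblast markers, which moved in the opposite direction, were at most 0.467 CPM in unstimulated and 2.91 to 7.63 CPM in LPS-primed BMDMs. Over all samples Dcn reached 7.23 CPM and each other gene of that list at most 0.663 CPM. The part of these markers in the Igfbp4 values was not tested.

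**Figure D3:**
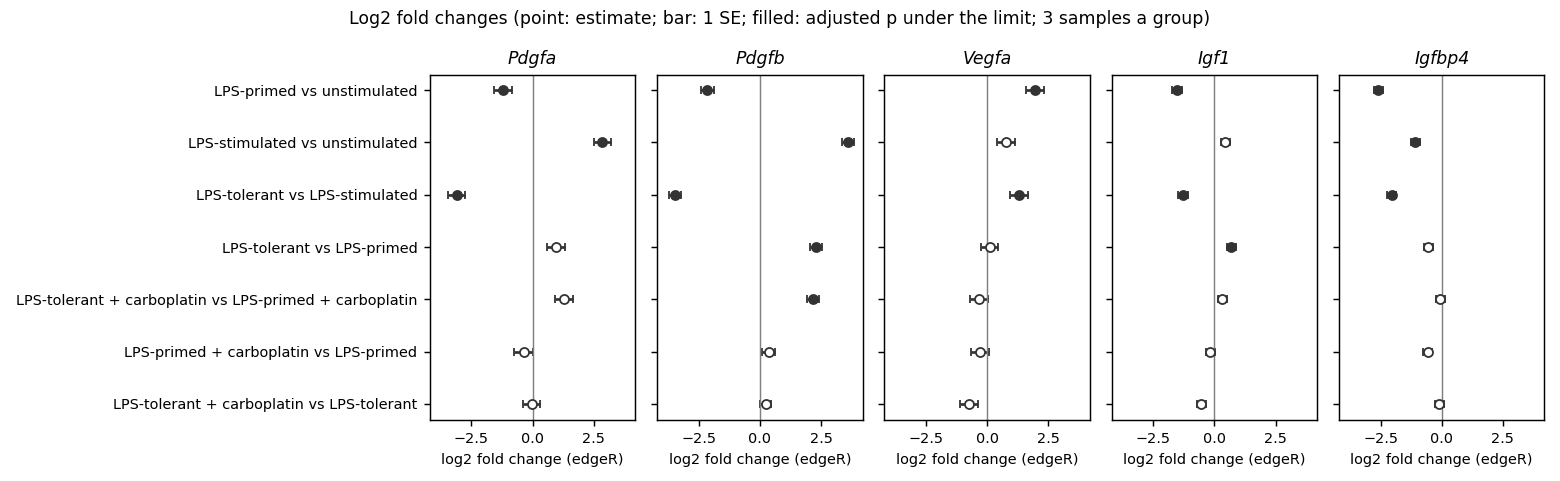
Log2 fold changes (x axis) of the 5 growth factor genes with reads in every sample, in 7 comparisons (y axis), with bars of 1 SE and filled points where the adjusted p was under the limit. Pdgfa and Pdgfb rose in LPS-stimulated and fell in LPS-primed BMDMs, Vegfa rose and Igfbp4 fell with priming, and no carboplatin comparison in the lowest 2 lines passed its limit in this fit without the replicate block.

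Inhba (chr13:16186373-16206206, plus strand) encodes the βA subunit that forms activin A, a ligand of the TGF-β superfamily. It was at 0.956, 0 and 0.909 in unstimulated BMDMs, 2 reads in all, and at 41.8, 63.0 and 76.9 in LPS-stimulated BMDMs, a ratio of 104 (counting interval 28.5 to 866, adjusted p = 0.000180). In LPS-primed BMDMs it was at 123, 30.8 and 106, a ratio to unstimulated BMDMs of 149 (40.9 to 1238, adjusted p = 0.000178). Every sample with LPS lay above every unstimulated sample.

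LPS-tolerant BMDMs were at 390.0, 53.5 and 139 for Inhba, with replicate 1 far above the others. The mean was 3.21-fold above LPS-stimulated BMDMs (log2FC 1.66 ± 0.62 SE, adjusted p = 0.0485), but the groups overlapped, 2 of 3 same-numbered pairs showed the direction, and the call was lost without LPS-tolerant replicate 1 (log2FC 0.65, adjusted p = 0.445). It was also lost without LPS-tolerant replicate 3 (adjusted p = 0.0541) and without any 1 LPS-stimulated sample (adjusted p = 0.0738 to 0.129), and with limma-voom (adjusted p = 0.212). The difference from LPS-primed BMDMs did not pass the limit (log2FC 1.15 ± 0.61 SE, adjusted p = 0.301). With carboplatin Inhba was at 267, 76.1 and 141 in the primed and 296, 122 and 174 in the tolerant state.

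Per kilobase of merged exons, the highest of the 10 genes changed from state to state. In unstimulated BMDMs Igfbp4 was highest, at 381 normalized counts per kb, followed by Igf1 at 229 and Vegfa at 76.9. In LPS-stimulated BMDMs Pdgfb led at 572 per kb, before Igf1 at 312, Igfbp4 at 179 and Vegfa at 132. Vegfa was highest in the other 4 groups, between 191 and 321 per kb. Igf1 came second in LPS-primed and LPS-tolerant BMDMs, at 79.5 and 128 per kb. Nrg1 reached 6.48 per kb at most, and its merged exons are long because many transcripts are annotated.

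Without the replicate block, carboplatin changed none of the 8 genes in the primed state, where 1.2% of all genes passed the limit of 0.25, and none in the tolerant state, where 1.65% did. At an unadjusted p under 0.05 in the same test, 1 gene was found in each, Igfbp4 in the primed and Igf1 in the tolerant state. The share of all genes at that looser limit is not given here, so this count is not a result about the growth factor genes. Igfbp4 was at 176, 203 and 185 in LPS-primed + carboplatin BMDMs, 1.49-fold below LPS-primed BMDMs and without overlap (log2FC -0.57 ± 0.19 SE, adjusted p = 0.374, or 0.200 without LPS-primed replicate 1). Igf1 was at 976, 723 and 1009 in LPS-tolerant + carboplatin BMDMs, 1.45-fold below LPS-tolerant BMDMs (log2FC -0.54 ± 0.19 SE, adjusted p = 0.409). Igf1 was lower with carboplatin in 3 of 3 same-numbered pairs, as the plot of carboplatin pairs shows.

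Vegfa was at 1392, 597 and 1135 in LPS-primed + carboplatin and at 1177, 575 and 710.3 in LPS-tolerant + carboplatin BMDMs. Relative to the cells without carboplatin this was 1.24-fold lower in the primed state (log2FC -0.31 ± 0.37 SE, adjusted p = 0.981) and 1.68-fold lower in the tolerant state (log2FC -0.75 ± 0.37 SE, adjusted p = 0.754). The direction was the same in all 6 pairs, whereas the groups overlapped. Under the replicate block, 2 genes passed the limit in the tolerant state, Vegfa (log2FC -0.74, adjusted p = 0.0753) and Igf1 (log2FC -0.53, adjusted p = 0.160), and Igfbp4 passed it in the primed state (log2FC -0.56, adjusted p = 0.0435). Under the block 6.93% of all genes passed in the tolerant and 7.87% in the primed state. It raised the share of all genes changed in LPS-primed relative to unstimulated BMDMs to 38.6%, in LPS-tolerant relative to LPS-stimulated BMDMs to 47.6% and for the second against the first response to 36.2%.

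The intervals of the carboplatin effect (estimate ± 2 SE, log2 scale) bound what these samples could show. In the tolerant state they were -0.22 to 0.70 for Pdgfb, -0.74 to 0.65 for Pdgfa and -0.47 to 0.29 for Igfbp4, and wider for Inhba (-1.16 to 1.22) and Nrg1 (-1.94 to 0.72). In the primed state they were -0.18 to 0.89 for Pdgfb, -0.55 to 0.20 for Igf1 and -0.34 to 2.11 for Inhba. The difference between the carboplatin effects of both states passed the limit for none of the 8 genes, and for none of the 11305 genes tested (0%). None of the 8 had an unadjusted p under 0.05 in edgeR without the replicate block, and 1 of them, Igfbp4, had with it (adjusted p = 1). The share of all genes at that unadjusted limit is not given here.

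**Figure D4:**
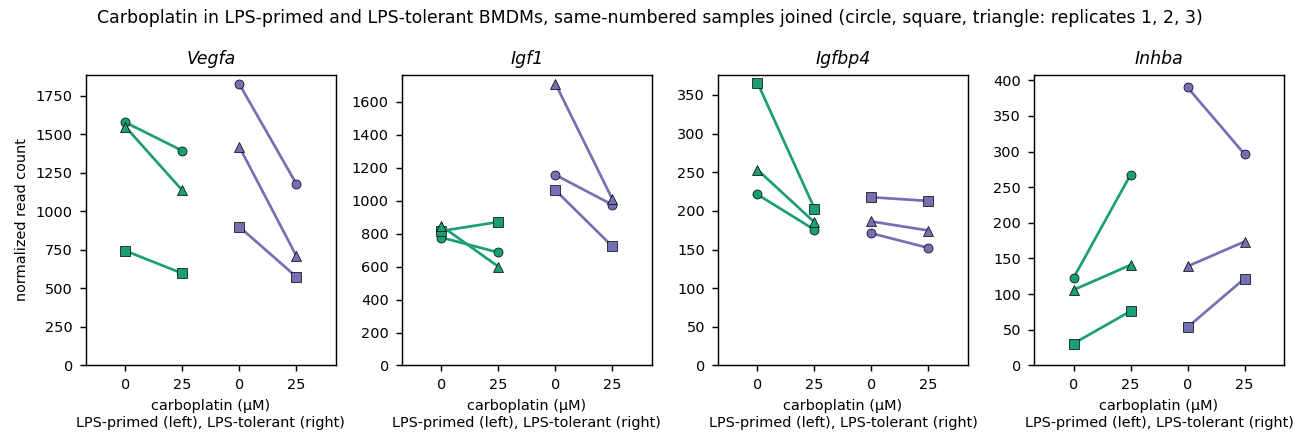
Normalized read counts (y axes, from 0) of 4 genes without and with 25 µM carboplatin (x axis) in LPS-primed and LPS-tolerant BMDMs, with same-numbered samples joined. Vegfa was lower with carboplatin in all 6 pairs and Igfbp4 in all 6, Igf1 in the 3 tolerant pairs, and Inhba was higher in 5 of 6 pairs.

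Of the other ligands and binding proteins of these families, 7 of 24 were tested, of which 2 rose (Vegfc, Pgf) and 2 fell (Nrg2, Vegfb) in LPS-stimulated relative to unstimulated BMDMs, 4 of 7 where 51.2% of all genes changed. Their median log2FC was 1.31 (-0.09 over all genes), the value of Nrg4, which was not called (10 against 4 reads, adjusted p = 0.151). Pgf, which encodes placental growth factor, a ligand of the VEGF receptor FLT1, went from 1.74 ± 0.754 (SD, n = 3) to 236 ± 63.9 (log2FC 6.95 ± 0.80 SE, adjusted p = 1.98e-06) and was back at 2.20 ± 1.83 in LPS-tolerant BMDMs (log2FC -6.57 ± 0.78 SE, adjusted p = 6.87e-06). In LPS-primed BMDMs 3 rose (Nrg4, Vegfc, Igfbp7) and 3 fell (Nrg2, Vegfb, Pdgfc), against 25.2% of all genes changed, with a median log2FC of 1.74 (-0.02 over all genes). That median was the value of Pgf, which was not called (18 against 6 reads, adjusted p = 0.220), and does not show a general rise. Pgf, Nrg4 and Igfbp7 had 6, 4 and 10 unstimulated reads and passed the filter on low counts through LPS-treated samples. Nrg2 passed it through unstimulated samples. Nrg4 rose from 1.20 ± 0.541 to 25.4 ± 10.1 (adjusted p = 2.56e-05), while Nrg2 fell from 32.9 ± 7.15 to 0.733 ± 0.636, 2 reads in all (adjusted p = 0.00143). The neuregulin genes Nrg1 and Nrg4 were thus higher and Nrg2 lower after priming.

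Of the receptors, 13 of 18 were tested. In LPS-stimulated relative to unstimulated BMDMs 8 rose (Egfr, Pdgfrb, Flt1, Nrp2, Igf1r, Igf2r, Acvr1b, Acvr2a) and 2 fell (Nrp1, Insr), against 51.2% of all genes changed, with a median log2FC of 1.37 (-0.09 over all genes). Egfr and Pdgfrb had 14 and 6 unstimulated reads and passed the filter on low counts through LPS-treated samples. The activin receptor genes Acvr1b (log2FC 2.36 ± 0.30 SE, adjusted p = 5.68e-06) and Acvr2a (log2FC 2.63 ± 0.36 SE, adjusted p = 1.37e-05) and the VEGF coreceptor gene Nrp2 (log2FC 2.20 ± 0.30 SE, adjusted p = 1.38e-05) led by p. After priming 3 rose (Pdgfrb, Nrp2, Acvr1b) and 3 fell (Flt1, Kdr, Nrp1), against 25.2% of all genes, with a median of 0.49 (-0.02 over all genes). Flt1 fell from 141 ± 29.4 in unstimulated to 7.64 ± 3.09 in LPS-primed BMDMs (log2FC -4.19 ± 0.49 SE, adjusted p = 6.23e-06), whereas the ligand gene Vegfa rose. Between LPS-stimulated and LPS-tolerant BMDMs 6 receptors were lower in the tolerant state and none higher (median -1.06), against 18.3% of all genes lower and 16.2% higher.

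Of the genes for shedding, processing and inhibition, 13 of 20 were tested. In LPS-stimulated relative to unstimulated BMDMs 7 rose (Adam17, Rhbdf1, Rhbdf2, Furin, Errfi1, Spry2, Hif1a) and Bambi fell, against 51.2% of all genes changed, with a median log2FC of 1.81 (1.73 with 1 gene at its bound, and -0.09 over all genes). Errfi1, which encodes the EGFR inhibitor MIG6, went from 50.5 ± 10.9 to 12754 ± 4160 (log2FC 7.97 ± 0.41 SE, adjusted p = 1.93e-10) and was at 258 ± 130 in LPS-tolerant BMDMs. Rhbdf2, which encodes iRhom2, the partner of ADAM17 in myeloid cells, rose from 489 ± 75.8 to 2775 ± 190 (log2FC 2.50 ± 0.23 SE, adjusted p = 1.72e-07). In LPS-primed BMDMs 7 rose and 3 fell, against 25.2% of all genes changed, with a median of 1.01 (0.92 with 1 gene at its bound, and -0.02 over all genes), and Mmp9, which encodes a matrix metalloprotease, went from 6.11 ± 5.58 to 328 ± 221 (log2FC 5.74 ± 0.80 SE, adjusted p = 4.15e-05). Mmp9 and Fst, with 20 and 0 unstimulated reads, passed the filter on low counts through LPS-treated samples.

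Hif1a, which encodes the oxygen-regulated subunit of HIF-1, was at 905 ± 137 in unstimulated, 10521 ± 2487 in LPS-stimulated and 10941 ± 3218 in LPS-primed BMDMs. It was at 8203 ± 2349 in LPS-tolerant BMDMs, which did not differ from LPS-primed BMDMs at the limit. Vegfa did not differ there either, but its mean was 566 in LPS-stimulated and 1290 in LPS-primed BMDMs. A link between Hif1a and Vegfa was not tested. In LPS-tolerant relative to LPS-primed BMDMs no gene of the 3 lists passed the limit without the replicate block, where 6.31% of all genes did. In the carboplatin comparisons of the same fit none passed within either state, against 1.2% of all genes in the primed and 1.65% in the tolerant state. Between the carboplatin-treated states 1.98% of all genes changed (1.29% upward). Of the 3 lists only Spry2, an inhibitor of receptor tyrosine kinase signaling, passed there. It was just under the limit and higher in the carboplatin-treated tolerant than in the carboplatin-treated primed state (log2FC 1.23 ± 0.31 SE, adjusted p = 0.0484).

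The second response was smaller than the first for Pgf among 7 tested ligands, for 6 of 13 receptors, and for Rhbdf2, Furin, Errfi1 and Hif1a of the 13 tested genes of the third list. Among the receptors were Acvr1b (difference -2.68 ± 0.41 SE), Nrp2 (-2.19 ± 0.41), Egfr and Pdgfrb (-4.07 ± 0.92). Of all genes, 13.3% had a called negative and 10.5% a called positive difference. Pgf, Pdgfrb and Egfr had only 6, 6 and 14 unstimulated reads. A smaller second response on the log2 scale was therefore partly built in for these genes. The difference was positive for Kdr, Nrp1 and Bambi. Nrp1 and Bambi fell at the first exposure (log2FC -1.54 and -2.03) and did not pass the limit at the second (log2FC 0.17 and 0.76), and Kdr passed it at neither (log2FC -0.50 and 1.38). For Errfi1 the difference was -7.31 ± 0.49 (SE, adjusted p = 1.36e-08), for Hif1a -3.95 ± 0.35 (adjusted p = 3.86e-07) and for Rhbdf2 -2.06 ± 0.31 (adjusted p = 0.000117).

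As a description over the 18 samples, which fall into the 6 groups, the genes most like each growth factor gene in log2 CPM were named. They were Nr4a3 and Phldb1 for Hbegf (Pearson's r 0.96 and 0.96), Pakap and Anxa5 for Pdgfa (0.96 and 0.95), and Dot1l and Map2k3 for Pdgfb (0.95 and 0.95). For Nrg1 they were Wfdc17 and Fcgr3 (0.96 and 0.95), for Vegfa Igfbp7 and Gstt4 (0.93 and 0.91) and for Inhba Slc7a11 and Sema3c (0.98 and 0.98). For Igf1 they were Nedd4l and Mamdc2 (0.95 and 0.95) and for Igfbp4 Arhgap18 and St6gal1 (0.98 and 0.98). Among the growth factor genes themselves, r was 0.94 between Pdgfa and Pdgfb, 0.89 between Hbegf and each of them, 0.87 between Nrg1 and Inhba and 0.86 between Nrg1 and Vegfa. Nrg1 and Igfbp4 ran opposite to each other, with r of -0.91.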

How the data were processed

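RNA of mouse BMDMs was sequenced as paired-end reads from Illumina TruSeq libraries. Per the labels, the authors aligned reads with HISAT2 to GRCm39 and counted them with HTSeq, and the deposited files hold raw counts of read pairs per gene. Tool versions, annotation and strand setting are not given in the sources used here. Rows that name no gene (41.5% to 46.9% of read pairs, of which reads outside annotated features made up 26.5% to 33.1% of all) were left out.

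Groups follow the labels. Counts of all 18 samples were fitted together with edgeR 4.0.16 in R 4.3.3 (TMM, filterByExpr with a minimum count of 10 and a minimum total of 15, quasi-likelihood test, Benjamini-Hochberg adjustment over 11305 genes). The fit was tried beforehand on simulated counts, in a single comparison and with changes only in genes well above 0 reads in unstimulated BMDMs. That trial covered neither genes near 0 reads nor differences between responses. SEs were derived from log2FC and the F statistic (log2FC squared over F, square root taken), and intervals are 2 SE to each side. For normalized counts, each count was scaled by its sample's effective (TMM-adjusted) library size to the mean of these sizes. The difference between 2 responses was a contrast of 4 groups. A fold against a group without reads is a bound at 3 reads per library, and against 1 to 3 reads a ratio with an exact 95% binomial interval, which covers counting error only. Same-numbered samples deviated together in each comparison of 2 groups (mean correlation of deviations 0.283 to 0.512, lowest 0.183), so a fit with the replicate number from the titles as a block was run beside the main design. The study names no pairing, and no source used here says that same-numbered samples share a mouse or a batch.

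The genes and lists were chosen with earlier results of these data known. All 10 growth factor genes were described. Of the pathway lists, those named with values were the called genes with an absolute log2FC above 1, at most 3 by p per list and comparison, and Erbb3 and the levels of other list genes were added after their values were seen. Alternatives were RLE size factors, library size alone, 2 other filters, DESeq2 1.42.0, limma-voom 3.58.1, the replicate block, the study's limit of 2 on the absolute log2FC, the 6 samples of a comparison alone, and leaving out samples. Leaving out 1 replicate number in every group was added after seeing the data. Promoters are the 300 bases before the start of the GENCODE canonical transcript. The promoters of 2 of the 10 genes are not reported here.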

Additional observations from a re-analysis of the deposited data

Results flagged for a closer look

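A smaller response to the second than to the first 10 ng/ml LPS exposure was found for 4 of the 8 tested growth factor genes by a direct test of the difference between both responses in edgeR, while a negative difference passed the limit for 13.3% of all genes tested. The adjusted p was 0.00894 for Pdgfa and 0.00945 for Pdgfb, genes with reads in all groups. It was 0.0213 for Nrg1, which rose from 0 reads at the first exposure and was lower in 2 of 3 same-numbered pairs after the second, and 0.0113 for Inhba, which was higher after the second exposure in 3 of 3 pairs. Nrg1 and Inhba passed the filter on low counts through LPS-treated samples. For them a smaller second response on the log2 scale was partly built in, so that only Pdgfa and Pdgfb bear on the comparison with all genes. In normalized counts, mean Inhba went from 0.622 to 60.5 at the first and from 86.5 to 194 at the second exposure. Groups of 3 were too small for a search for samples that stand apart.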

How the results depend on the processing

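Of 1379 values of single growth factor genes recomputed under an alternative, 1265 kept their direction and side of the limit, 48 lost and 27 gained the call, and 39 changed sign with neither value past the limit, 11 of them of Hbegf. No called value changed sign. The number of changed genes, 7 in LPS-primed and 6 in LPS-stimulated relative to unstimulated BMDMs and 8 in LPS-tolerant relative to LPS-stimulated BMDMs, was 4 and 5 for the first and the last with an absolute log2FC above 2, and 3 for the second with at least 10 counts in every sample. For LPS-tolerant relative to LPS-primed BMDMs, 2 became 1 with library size alone, with the fold limit and with 6 samples alone. DESeq2 gave 1 gene for carboplatin in the primed state, 1 in the tolerant state and 2 between the carboplatin-treated states. The count of 4 smaller second responses was 2 with at least 10 counts (Pdgfa and Pdgfb) and 2 with the fold limit (Nrg1 and Inhba). With samples left out, the counts were 6 to 7, 6 to 8, 6 to 8, 1 to 2, 0 to 1 (1 without LPS-primed replicate 1), 0 to 0 and 0 to 1 in the order of these comparisons, and 0 to 5 for the second response. Without replicate 3 of every group the last count and that between the carboplatin-treated states were 0, where Pdgfb had an adjusted p of 0.0535. Without replicate 2 of every group, the adjusted p of Nrg1 was 0.0937 in LPS-stimulated relative to unstimulated and 0.0520 in LPS-tolerant relative to LPS-stimulated BMDMs. The causes were not tested beyond fewer samples or genes entering the fit.

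With the replicate block the counts were 7, 8, 8, 3, 1, 2 and 2, against 7, 6, 8, 2, 0, 0 and 1 without it. For the second response the block gave 5 with Igfbp4 (adjusted p = 0.0286), although not every pair of same-numbered samples deviated together there (lowest correlation 0.0631). The block changed no other call, and the difference between the carboplatin effects stayed at 0 genes.

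Low counts limit Areg, Ereg and Hbegf outside LPS-stimulated BMDMs, and Nrg1 and Inhba in unstimulated BMDMs.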
